A study of Glycine max with 12 samples.

Results

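The loci described here were expressed more in young leaves of a soybean line that overexpresses GmNAC81, a NAC transcription factor, than in young leaves of its parent BR16, although they fall as BR16 leaves age. The members were chosen by their measured levels in 3 of the 4 groups, and a locus was a member when 2 ratios held. The levels are CPM, counts relative to library size after scaling by edgeR's TMM factors, plus an offset of 0.1. The lowest GmNAC81-3 library at stage V3 had to reach at least 1.5 times the highest BR16 library at V3, and the lowest BR16 library at V3 at least 2 times the highest BR16 library at stage R6. Loci from Glyma.02G060600 to Glyma.02G090500 on chromosome 2 were left out. Of 39443 loci tested, 774 passed the first threshold, 4665 the second and 155 both, of which 4 lay in the stretch left out, so that 151 members remained, or 0.383% of the loci tested. All 151 passed the filter on low counts, which was part of the rule.

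The 12 libraries came from leaves in 4 groups of 3: GmNAC81-3 R6, BR16 R6, GmNAC81-3 V3 and BR16 V3. R6 leaves were sampled 80 days after germination, when senescence begins, and V3 leaves at 20 days. BR16 is the untransformed cultivar, and GmNAC81-3 is a single transgenic BR16 line that carries GmNAC81 under the constitutive 35S promoter, so that the line and its insertion cannot be told apart from GmNAC81 itself. The labels give normal growth conditions for all plants, and each library came from discs of the third leaf. No cell type was separated, so that fewer cells of a type and less RNA per cell cannot be told apart in any of these values. Libraries were sequenced in 1 set per stage, so that leaf age and sequencing set cannot be told apart.

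Leaf senescence is an ordered process in which a leaf dismantles its chloroplasts and exports nitrogen and other nutrients to seeds and young organs. NAC transcription factors are among its main regulators, and transcripts for photosynthesis and growth usually decline while those for breakdown and transport rise. GmNAC81 acts downstream of the NRP proteins in a cell death pathway that ends in vacuolar processing enzyme. The members are of interest because at V3 they stood away from BR16 in the direction opposite to their course in ageing BR16 leaves.

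Library totals ran from 54282911 to 65381987 counts in GmNAC81-3 R6, 60645974 to 77952663 in BR16 R6, 42797825 to 54670507 in GmNAC81-3 V3 and 51908861 to 60500341 in BR16 V3. GmNAC81 itself, Glyma.12G022700 on chromosome 12, had 46.6, 53.5 and 69.1 CPM in GmNAC81-3 R6, against 60.7, 11.3 and 41.9 CPM in BR16 R6. At V3 it had 81.9, 184 and 33.4 CPM in GmNAC81-3 and 3.58, 6.45 and 7.26 CPM in BR16, so that the genotypes separated at V3 and overlapped at R6. The 3 most abundant loci took 44.1% to 58.5% of the counts in GmNAC81-3 V3, against 32.1% to 38.5% in BR16 V3, and the TMM factors were 0.498 to 0.657 in GmNAC81-3 V3 and 0.969 to 1.38 in BR16 V3. This scaling bears on the membership itself. With library totals in place of TMM the median log2 fold change of all tested loci between GmNAC81-3 V3 and BR16 V3 was -1.08, and 60 of the 151 members were still above every BR16 V3 library, 12 of them by 1.5 times or more. The V3 rise of the members is therefore a rise relative to the bulk of the tested loci, and for 91 members it did not hold on the totals.

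**Figure D1:**
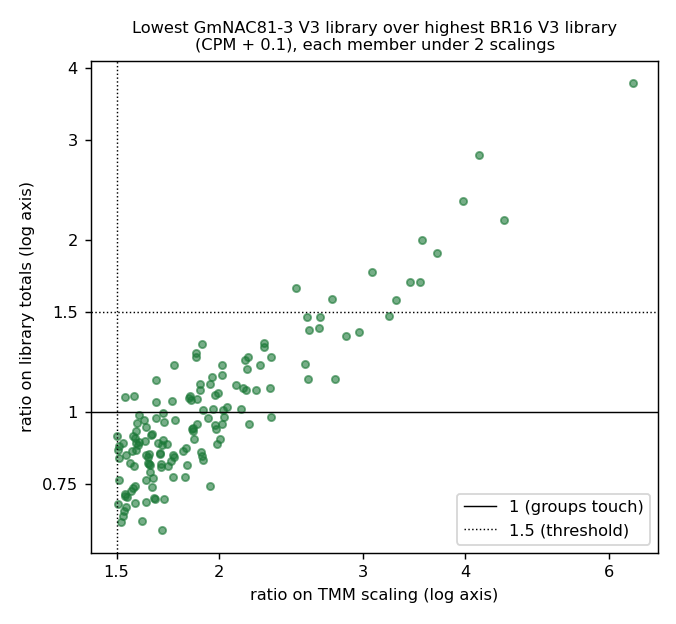
Each point is 1 of the 151 members. The x axis gives the ratio of the lowest GmNAC81-3 V3 library to the highest BR16 V3 library (CPM + 0.1) on TMM scaling, and the y axis the same ratio on library totals, both on log axes; 60 members lie above 1 on the totals and 12 reach 1.5.

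Across the members the levels fell into a young and an old range in every library. The median member had 1.26, 1.25 and 1.12 CPM in GmNAC81-3 R6, against 1.03, 1.01 and 0.900 CPM in BR16 R6. Its V3 levels were 29.3, 29.4 and 24.5 CPM in GmNAC81-3, against 12.1, 8.53 and 10.4 CPM in BR16. The members together took 0.129% to 0.174% of the counts in GmNAC81-3 R6 and 0.129% to 0.188% in BR16 R6. At V3 their share was 1.34% to 1.65% in GmNAC81-3 and 1.04% to 1.23% in BR16. A group mean above 100 CPM was seen for 2 members in GmNAC81-3 R6, 2 in BR16 R6, 37 in GmNAC81-3 V3 and 13 in BR16 V3. A group mean under 1 CPM was seen for 70, 76, 2 and 16 members in the same groups. CPM were not corrected for transcript length, so that levels of different loci are not set against each other.

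**Figure D2:**
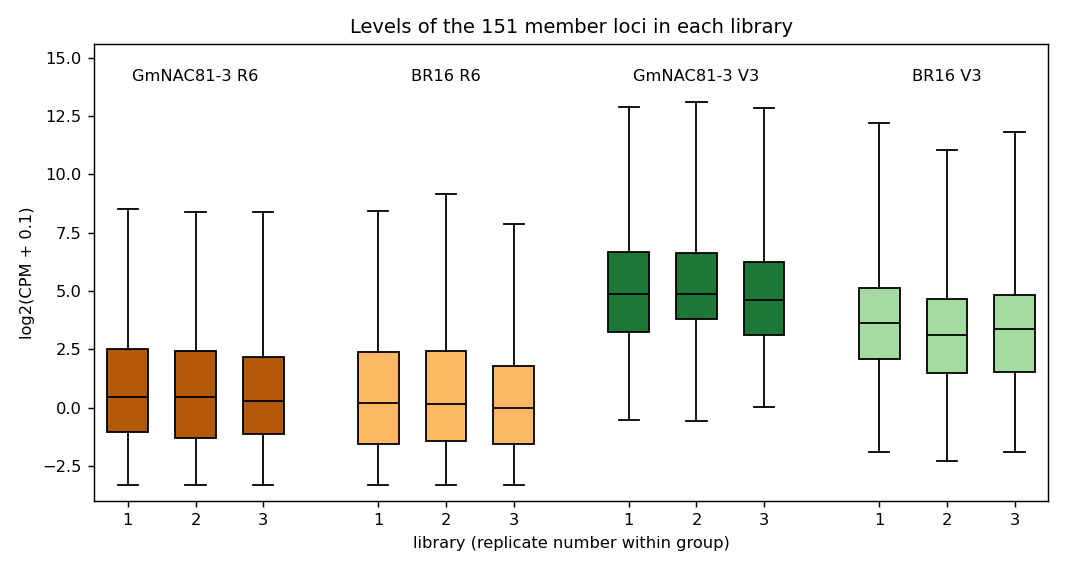
The boxes show the levels of the 151 members in each of the 12 libraries as log2(CPM + 0.1), with the median as a line, the quartiles as the box and the whole range as whiskers. The 6 R6 libraries lie together at medians of 0.900 to 1.26 CPM, and the V3 libraries lie above them, with GmNAC81-3 above BR16.

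The contrasts that chose the members are given as a description. Between GmNAC81-3 V3 and BR16 V3 the median log2 fold change of the members was 1.41 (2.66-fold), with the quartiles at 1.12 and 1.89, and 99 of 151 were called higher against 1.75% of all tested loci (Benjamini-Hochberg adjusted p under 0.05 in the quasi-likelihood test of edgeR, and a log2 fold change above 1). Between BR16 R6 and BR16 V3 the median log2 fold change was -2.96 (7.79-fold lower at R6), and all 151 were called lower against 19.6% of the tested loci. Nothing is read from either count, since the rule used these libraries. For 33 members the first ratio lay between 1.5 and 1.6, and 57 loci that met the second threshold lay just below it, between 1.4 and 1.5. Glyma.10G168100 and Glyma.02G126500 were the last loci inside at 1.505 and 1.503, and Glyma.07G229600 and Glyma.13G244300 the first outside at 1.4995 and 1.4986. For 15 members the second ratio lay between 2 and 2.2, with Glyma.01G195600 and Glyma.02G046600 nearest the threshold at 2.01 each. Another 23 loci lay between 1.8 and 2, with Glyma.15G046700 and Glyma.05G197100 nearest to it at 1.99 each. The edge of the set was thus densely filled and does not mark a gap in the data.

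The GmNAC81-3 R6 libraries were not used by the rule and show what the members did in aged leaves of the line. Against GmNAC81-3 V3, 150 of 151 members were called lower in GmNAC81-3 R6, where 20.1% of all tested loci were. Their median log2 fold change was -4.57 (23.8-fold lower), and with the 6 members at 3 counts or fewer in every GmNAC81-3 R6 library set to a bound it was -4.47. The same 150 members did not overlap between these groups, against 25.5% of the tested loci, and their lowest V3 library was at least 2 times their highest R6 library, against 10.1% of the tested loci. The V3 libraries in this contrast were chosen to be high, so that the size of the fall is in part fixed by the rule. Against BR16 V3, whose libraries the rule also used, 145 members were called lower in GmNAC81-3 R6 and 1 was called higher, where 19.3% and 13.2% of the tested loci were. The median log2 fold change in that contrast was -2.78 (6.87-fold lower), and 149 members lay below every BR16 V3 library, against 29.2% of the tested loci. In 125 members the lowest BR16 V3 library was at least 2 times the highest GmNAC81-3 R6 library, against 11.2% of the tested loci. In these libraries aged leaves of the line held nearly all members below the level of young BR16 leaves, and not only below the raised level of young GmNAC81-3 leaves. The rule had set the BR16 V3 libraries above BR16 R6, so that these counts too are in part favoured by it.

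At R6 most members lay within 2-fold between the genotypes, as most of the tested loci did. The rule required low BR16 R6 libraries, so that positive values in this contrast are in part favoured by it. The median log2 fold change of GmNAC81-3 R6 against BR16 R6 was 0.14 over the members and 0.0026 over all tested loci. A positive value was seen in 99 members and a negative one in 52, where 50.3% and 49.7% of the tested loci had them. The test called 1 member higher, where 0.0659% of the tested loci were called, and 0 lower, where 0.033% were. At an unadjusted p under 0.05, 13 members were higher and 3 lower, where 2.42% and 4.44% of the tested loci were. DESeq2 called 4 members higher and 0 lower, where 0.31% and 0.259% of the loci with an adjusted p were. No overlap between the genotypes was seen for 13 members that were higher in GmNAC81-3 R6 and 2 that were lower, against 6.8% and 6.86% of the tested loci. The genotypes lay within 1.5-fold of each other in 113 members (74.8%, against 79.1% of the tested loci) and within 2-fold in 137 (90.7%, against 90.6%). The median fold change between the genotypes was 2.66 at V3, where the rule required a difference, and 1.10 at R6, where it required none between them. The 2 values are therefore given as a description. The difference of the stage effects again holds the libraries that chose the members and is given as a description. Its median was -1.28 on the log2 scale, and 99 members had an unadjusted p under 0.05 in the lower direction, where 6.4% of the tested loci had. By the adjusted p, 1 member was called lower, where 0.0482% of the tested loci were, and 0 were called higher by edgeR, where 0.0228% were. At an unadjusted p under 0.05, 1 member was higher in that contrast, where 6.69% of the tested loci were. DESeq2 called 54 members lower and 1 higher, where 1.51% and 1.3% of the loci with an adjusted p were.

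**Figure D3:**
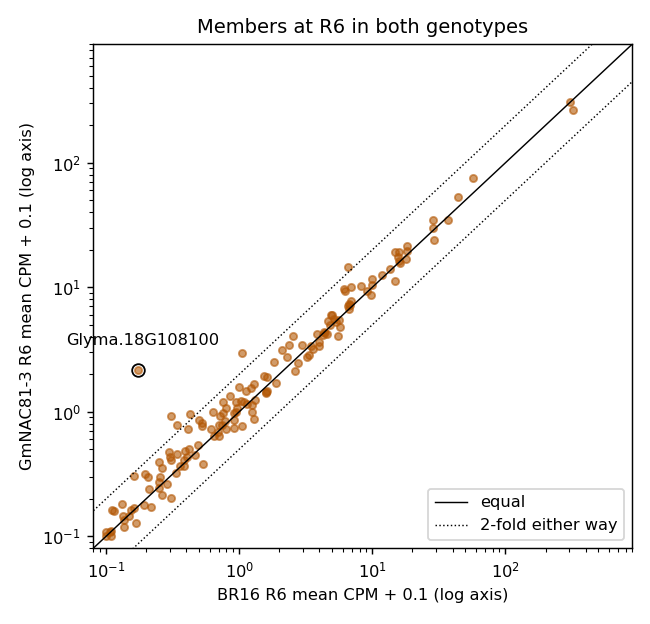
Each point is 1 of the 151 members, with its mean CPM + 0.1 in GmNAC81-3 R6 on the y axis and in BR16 R6 on the x axis, both on log axes. By the fitted fold change 137 members lie within 2-fold, and the circled Glyma.18G108100 stands apart at 27.0-fold higher in GmNAC81-3 R6.

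Only 4 of the 151 members carry a description in the study's tables of senescence and drought genes, which name 392 of the tested loci. The study drew up those tables on these samples, so that their direction at V3 is not independent of the values here. The other members are known here by locus identifier alone, since the deposited table does not pair identifiers with names, and nothing is said of what they encode. The 4 described members were an enzyme of carbon fixation, a pair of membrane kinases and an enzyme of sterol synthesis.

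Rubisco activase (RCA), the chaperone that frees inhibited Rubisco and so keeps carbon fixation going in the light, was represented by Glyma.18G036400 on chromosome 18. It had 282, 175 and 340 CPM in GmNAC81-3 R6, against 236, 573 and 155 CPM in BR16 R6. In young leaves it reached 7584, 8789 and 7405 CPM in GmNAC81-3, against 4670, 2102 and 3584 CPM in BR16. Both genotypes were high at V3 and low at R6, with no overlap between stages, as the rule required of BR16. The R6 libraries of the genotypes overlapped. The log2 fold change of GmNAC81-3 R6 against GmNAC81-3 V3 was -4.90 ± 0.57 (SE, standard error of the fit, adjusted p = 4.94e-05), a 29.8-fold lower level. That of BR16 R6 against BR16 V3 was -3.43 ± 0.53 (SE). At V3 the log2 fold change of GmNAC81-3 against BR16 was 1.20 ± 0.49 (SE), which was not called (adjusted p = 0.170). As a share of all counts, RCA took 0.420% to 0.486% in GmNAC81-3 V3 and 0.290% to 0.452% in BR16 V3, and these shares overlapped.

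The study's tables name 3 other RCA loci, which were not members. All 4 were called lower at R6 in both genotypes, with log2 fold changes of -5.31 to -2.81 in GmNAC81-3 and -3.97 to -2.30 in BR16. Of the tested loci 20.1% were called lower in GmNAC81-3 and 19.6% in BR16. All 4 RCA loci had a positive log2 fold change between GmNAC81-3 V3 and BR16 V3, from 0.57 to 1.20. By edgeR's test 0 were called, although 3 had an unadjusted p under 0.05. Of the tested loci 47.6% had a positive value, 1.75% were called higher and 11.2% were higher at an unadjusted p under 0.05. Glyma.11G221000 came nearest to the member. It had 221, 147 and 256 CPM in GmNAC81-3 R6, against 185, 418 and 140 CPM in BR16 R6. At V3 it stood at 8676, 8945 and 7205 CPM in GmNAC81-3, against 5238, 2471 and 3936 CPM in BR16. It did not reach the first threshold, with a ratio of 1.38 where the member had 1.59, so that the rule parted a pair of loci with much the same course. Reads of near-identical copies may have been shared between such loci in the counting.

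**Figure D4:**
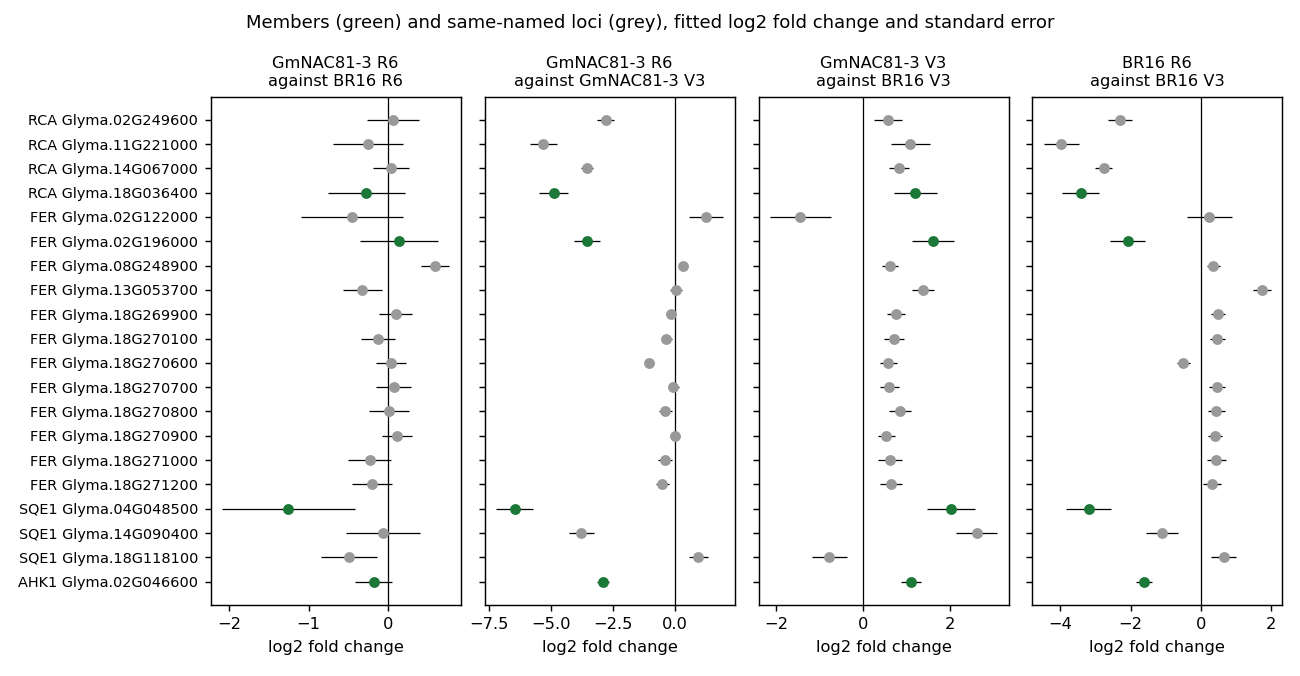
Fitted log2 fold changes with standard errors (bars) of 20 loci, the 4 described members in green and the loci of the same name in grey, in 4 contrasts with 1 panel each. The 4 RCA loci lie left of 0 in both stage contrasts, whereas the 12 FER loci lie on both sides of 0 in each; the members lie left of 0 in BR16 by the rule that chose them.

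The receptor kinase FERONIA (FER), which in Arabidopsis binds RALF peptides at the cell surface and links the state of the cell wall to growth, was represented by Glyma.02G196000 on chromosome 2. It had 0.265, 0.913 and 1.05 CPM in GmNAC81-3 R6, against 0.684, 1.06 and 0.300 CPM in BR16 R6. V3 leaves held 7.07, 12.3 and 7.12 CPM in GmNAC81-3, against 2.68, 2.70 and 3.27 CPM in BR16. Its level in aged leaves was low in both genotypes and overlapped, and in young leaves the genotypes were clear of each other, as the rule required. The log2 fold change of GmNAC81-3 R6 against GmNAC81-3 V3 was -3.55 ± 0.52 (SE, adjusted p = 0.000228). At V3 it was 1.61 ± 0.47 (SE) for GmNAC81-3 against BR16 and was not called (adjusted p = 0.0747). The tables give this name to 12 loci. In BR16 R6 against BR16 V3 the member was called lower, a direction that the rule had fixed, and of the other 11 only Glyma.13G053700 was called, higher with a log2 fold change of 1.74. Of the 39443 tested loci 7731 were called lower and 5945 higher in that contrast. In GmNAC81-3 R6 against GmNAC81-3 V3, 2 of the 12 FER loci were called lower, where 20.1% of the tested loci were. At V3, 11 of the 12 had a positive value and 1 was called higher, again Glyma.13G053700 with 1.39. Of the tested loci 47.6% had a positive value there and 1.75% were called higher. Several of the FER loci lie close together on chromosome 18, from Glyma.18G269900 to Glyma.18G271200, and reads of near-identical copies may be shared among them.

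Histidine kinase 1 (AHK1), put forward in Arabidopsis as a sensor of water status, was represented by Glyma.02G046600 on chromosome 2. It had 3.74, 2.28 and 3.24 CPM in GmNAC81-3 R6, against 3.10, 4.34 and 3.06 CPM in BR16 R6. In V3 leaves it had 25.8, 20.7 and 22.7 CPM in GmNAC81-3, against 13.2, 10.3 and 8.83 CPM in BR16. The genotypes overlapped at R6 and, as the rule required, were clear of each other at V3. It was the only described member called at V3, with a log2 fold change of 1.10 ± 0.23 (SE, adjusted p = 0.0276) for GmNAC81-3 against BR16. On library totals that value was 0.079 (adjusted p = 0.779). The rule chose the member on these V3 libraries, so that the call at V3 and its p are a description. The fall with age was 7.48-fold in GmNAC81-3 (log2 fold change -2.90 ± 0.25 SE, adjusted p = 5.47e-06) and 3.08-fold in BR16, and the R6 genotypes differed by a log2 fold change of -0.18 ± 0.23 (SE, adjusted p = 0.974).

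Squalene epoxidase 1 (SQE1), which in Arabidopsis oxidises squalene on the way to sterols, was represented by Glyma.04G048500 on chromosome 4. It was nearly silent in aged leaves, with 0, 2 and 4 counts in GmNAC81-3 R6 and 7, 2 and 10 counts in BR16 R6. The V3 libraries had 2.81, 2.93 and 2.21 CPM in GmNAC81-3, against 1.11, 0.347 and 0.507 CPM in BR16. The log2 fold change was -6.47 ± 0.75 (SE, adjusted p = 4.46e-05) for GmNAC81-3 R6 against GmNAC81-3 V3 and 2.02 ± 0.55 (SE, adjusted p = 0.0593, not called) for GmNAC81-3 V3 against BR16 V3. Of the other 2 loci of that name, Glyma.14G090400 was called higher at V3 with a log2 fold change of 2.61 (adjusted p = 0.0155). It had 11.2, 39.2 and 21.8 CPM in GmNAC81-3 V3, against 5.87, 1.75 and 4.19 CPM in BR16 V3. It was called lower in GmNAC81-3 R6 against GmNAC81-3 V3, with -3.78 (adjusted p = 0.00012), and its change in BR16 R6 against BR16 V3 was -1.10 (adjusted p = 0.0721) and was not called. This locus passed the first ratio, at 1.89, but not the second, at 0.852, although its fitted values had the sign of the member's in each of these contrasts. Glyma.18G118100 had values of -0.77 at V3 and 0.65 with age in BR16, neither of them called.

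**Figure D5:**
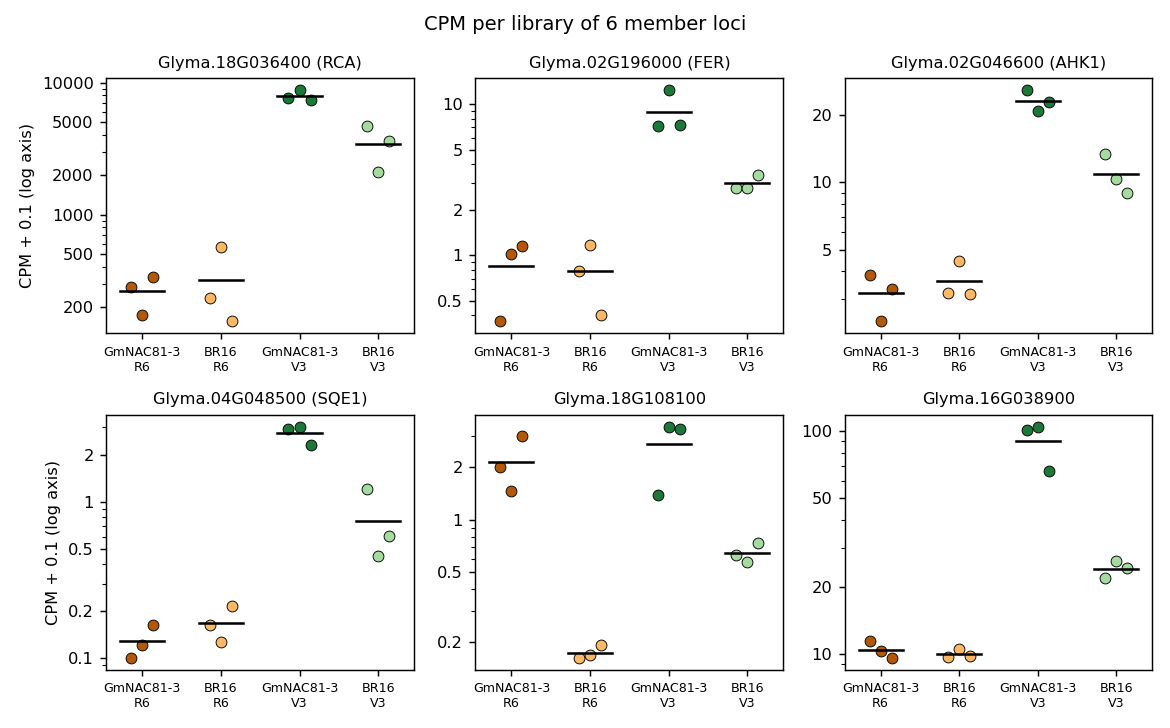
CPM + 0.1 of 6 members in each library (points) with the group mean (line), on a log axis, for GmNAC81-3 R6, BR16 R6, GmNAC81-3 V3 and BR16 V3. Each described member is lower in both R6 groups than in its own V3 libraries. Glyma.18G108100 has 1.36 to 2.89 CPM in GmNAC81-3 R6, above its BR16 V3 libraries, and 0.0622 to 0.0923 CPM in BR16 R6.

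The 12 highest ranks held loci of widely different level in young BR16 leaves, from a BR16 V3 mean of 0.683 CPM in Glyma.13G113000 to 40.0 CPM in Glyma.02G001000. Glyma.13G162600 on chromosome 13, with the largest first ratio of 6.40, had 0.315, 0.382 and 0.240 CPM in GmNAC81-3 R6, against 0.160, 0.164 and 0.288 CPM in BR16 R6. Its V3 levels were 39.7, 43.2 and 7.76 CPM in GmNAC81-3, against 1.13, 0.926 and 1.01 CPM in BR16. Glyma.19G098500 on chromosome 19 had 0.265, 0.138 and 0.0319 CPM in GmNAC81-3 R6, against 0.0977, 0.164 and 0.185 CPM in BR16 R6. In young leaves it reached 204, 88.5 and 15.01 CPM in GmNAC81-3, against 1.91, 4.19 and 2.03 CPM in BR16. In both loci the GmNAC81-3 V3 libraries were themselves far apart, with replicate 3 the lowest.

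That unevenness was shared by a small part of the set. The ratio of the highest to the lowest GmNAC81-3 V3 library (CPM + 0.1) had a median of 1.41 over the members and 1.75 over all tested loci, and it exceeded 5 in 11 of the 151 members, against 4.48% of the tested loci. Of these 11, 7 were among the 12 highest ranks, and in all 11 replicate 3 was the lowest library. Glyma.03G078300, which is ranked second, had 110, 21.5 and 8.32 CPM in GmNAC81-3 V3, against 1.78, 1.79 and 1.39 CPM in BR16 V3. Not all high ranks were uneven. Glyma.02G001000 had 158, 180 and 176 CPM in GmNAC81-3 V3, against 51.4, 33.5 and 35.3 CPM in BR16 V3. Over the whole set replicate 2 was the highest GmNAC81-3 V3 library in 78 members and replicate 3 the lowest in 78, 51.7% each, where 30.6% and 32.2% of the tested loci were so ordered. GmNAC81 was also highest in replicate 2 and lowest in replicate 3 of GmNAC81-3 V3, and its part in the order was not tested. The TMM factors of these libraries were 0.554, 0.498 and 0.657 for replicates 1, 2 and 3, so that replicate 2 also had the lowest factor and replicate 3 the highest. In BR16 V3, replicate 1 was the highest library in 108 members (71.5%, against 37.3% of the tested loci) and replicate 2 the lowest in 105 (69.5%, against 33.9%). Their TMM factors were 0.969 for replicate 1 and 1.38 for replicate 2.

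Some members were all but lost in aged leaves. Glyma.08G314700 on chromosome 8 had 0 counts in every GmNAC81-3 R6 library, and 0, 2 and 0 counts in BR16 R6. At V3 it stood at 34.9, 37.2 and 39.1 CPM in GmNAC81-3, against 10.8, 4.26 and 10.6 CPM in BR16. Set against a floor of 3 counts per library, it was at least 859-fold lower in GmNAC81-3 R6 than in GmNAC81-3 V3. Glyma.12G068900 on chromosome 12 had 0 counts in all 6 R6 libraries, but it was also low in V3 leaves, with 18, 22 and 28 counts in GmNAC81-3 and 10, 8 and 10 counts in BR16. At 3 counts or fewer in every library of the group were 6 members in GmNAC81-3 R6 and 7 in BR16 R6. Glyma.08G306200 on chromosome 8 kept a trace, with 0.381, 0.127 and 0.383 CPM in GmNAC81-3 R6 and 0.107, 0.245 and 0.0923 CPM in BR16 R6. V3 leaves held 31.0, 49.0 and 40.8 CPM in GmNAC81-3, against 14.3, 7.11 and 12.2 CPM in BR16, and its level in GmNAC81-3 R6 was 139-fold lower than in GmNAC81-3 V3 (adjusted p = 2.06e-06).

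The members with the most counts after RCA fell to different depths. Glyma.05G180600 on chromosome 5 had 8.43, 7.70 and 13.4 CPM in GmNAC81-3 R6, against 5.72, 11.96 and 2.88 CPM in BR16 R6. In V3 leaves it had 1543, 3992 and 2720 CPM in GmNAC81-3, against 803, 607 and 1005 CPM in BR16. Its fall with age was 279-fold in GmNAC81-3 (log2 fold change -8.12 ± 0.68 SE, adjusted p = 4.69e-06) and 118-fold in BR16. Glyma.14G094700 on chromosome 14 had 362, 339 and 226 CPM in GmNAC81-3 R6, against 347, 338 and 236 CPM in BR16 R6. The V3 libraries had 1926, 2908 and 2961 CPM in GmNAC81-3, against 1274, 929 and 1059 CPM in BR16. Its fall was 8.41-fold in GmNAC81-3 (log2 fold change -3.07 ± 0.32 SE, adjusted p = 2.36e-05) and 3.54-fold in BR16. Glyma.02G292800 on chromosome 2 was even across replicates at R6, with 14.5, 16.8 and 15.7 CPM in GmNAC81-3 and 18.1, 14.4 and 15.4 CPM in BR16. Its V3 levels were 1434, 1993 and 1128 CPM in GmNAC81-3, against 474, 430 and 486 CPM in BR16. Its fall in GmNAC81-3 was 97.1-fold (adjusted p = 2.52e-07).

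A few members departed from the common course. Glyma.18G108100 on chromosome 18, ranked 63, had 1.89, 1.36 and 2.89 CPM in GmNAC81-3 R6, against 0.0622, 0.0682 and 0.0923 CPM in BR16 R6. In young leaves it reached 1.29, 3.29 and 3.20 CPM in GmNAC81-3, against 0.529, 0.476 and 0.638 CPM in BR16. It stayed high in GmNAC81-3 at both stages, and every GmNAC81-3 library lay above every BR16 library. It was the only member called between the genotypes at R6, with a log2 fold change of 4.75 ± 0.46 (27.0-fold, SE, adjusted p = 0.00271 in edgeR). The rule required low BR16 R6 libraries, so that this value and its p are of a locus chosen in part on them. Over the alternatives the value for Glyma.18G108100 stayed between 4.42 and 4.98 with an adjusted p of up to 0.0383. It was also the only member not called lower in GmNAC81-3 R6 against GmNAC81-3 V3 (log2 fold change -0.34 ± 0.37 SE, adjusted p = 0.478), and on library totals that value was 0.66. It was the only member called higher in GmNAC81-3 R6 than in BR16 V3, with 1.90 (adjusted p = 0.00242).

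A similar but smaller shift was seen in Glyma.02G126500 on chromosome 2, the last member by rank. It had 1.03, 0.552 and 0.990 CPM in GmNAC81-3 R6, against 0.355, 0.354 and 0.265 CPM in BR16 R6. At V3 it stood at 2.94, 2.52 and 2.21 CPM in GmNAC81-3, against 1.43, 0.978 and 1.01 CPM in BR16. Its R6 libraries did not overlap between the genotypes, but the log2 fold change of 1.38 was not called (adjusted p = 0.217). Glyma.02G098700, also on chromosome 2, had 16.3, 13.8 and 12.9 CPM in GmNAC81-3 R6, against 7.33, 6.79 and 5.26 CPM in BR16 R6. Its R6 log2 fold change of 1.15 ± 0.20 (SE, adjusted p = 0.0752) was not called either. V3 leaves held 74.1, 104 and 86.5 CPM in GmNAC81-3, against 22.8, 21.5 and 24.9 CPM in BR16. Its fall with age in GmNAC81-3 was 6.15-fold (adjusted p = 3.41e-06 in edgeR). The other extremes at R6 rested on few counts. Glyma.17G013500 had 0, 2 and 0 counts in GmNAC81-3 R6 and 0 in each BR16 R6 library, and Glyma.10G014600 had 2, 2 and 8 counts in GmNAC81-3 R6 and 2, 0 and 1 in BR16 R6. On the lower side lay Glyma.08G314700, whose R6 counts are given above, and the SQE1 member Glyma.04G048500, with a log2 fold change of -1.25 ± 0.83 (SE, adjusted p = 0.855) that was not called. Next to them Glyma.13G365000 had 0.0662, 0.117 and 0.128 CPM in GmNAC81-3 R6, against 0.107, 0.314 and 0.196 CPM in BR16 R6, with a log2 fold change of -0.93 that was not called (adjusted p = 0.721).

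Members were spread over all 20 chromosomes and 1 unplaced scaffold, from 3 on chromosome 11 (of 1897 tested loci there) to 14 on chromosome 13 (of 2766). Chromosome 14 held the most for its tested loci, with 11 of 1544, and chromosome 2 held 13 without the stretch left out. Within 10 positions of each other in the order of identifiers lay 3 pairs. Glyma.06G028500 and Glyma.06G028800 were 11.5-fold and 11.4-fold lower in GmNAC81-3 R6 than in GmNAC81-3 V3, and Glyma.17G027300 and Glyma.17G027800 24.5-fold and 27.6-fold lower. The third pair was less alike, with Glyma.08G305400 18.6-fold lower and Glyma.08G306200 139-fold lower. Most members were therefore not neighbours of each other.

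By transcript model, 104 members had 1 model and 47 had several. In those 47 the most abundant model took a median of 50.5% of the counts in GmNAC81-3 V3, close to an even split, and in 26 it was the same model in all 4 groups. All 135 tested models of these loci repeated the separation of GmNAC81-3 V3 above BR16 V3 and of BR16 V3 above BR16 R6. The rule chose the sums of these models on the same separations in the same libraries. The count was therefore largely fixed by the rule, and nothing is read from it. With counts shared so evenly between models of a locus, the models are not independent measurements.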

How the data were processed

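The 12 libraries were made from RNA of the third leaf. According to the Supplementary Methods, the authors made stranded TruSeq libraries, read them as 100 bp pairs, trimmed them with Sickle, used Bowtie 2 and Rsubread for mapping to assembly Wm82.a2.v1 and counting, whereas the submitters' processing notes name HISAT2 2.1.0 and featureCounts. The deposited values are raw counts by the authors for 84782 transcript models, without normalization. Models were summed to 52660 loci, several models being joined at 15054, and the transgene's terminator entry was added to GmNAC81. Low counts were mostly even (80.5% of those below 50), so that counts may overstate fragments, and bounds cover counting error only.

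In R 4.3.3, edgeR 4.0.16 filterByExpr with the 4 groups left 39443 loci. A model of the 4 group means (TMM scaling, all 12 libraries) was tested with edgeR's quasi-likelihood F-test, with Benjamini-Hochberg adjustment over the tested loci. A call needed an adjusted p under 0.05 together with a log2 fold change past 1 in either direction. The procedure was tested on simulated data. DESeq2 1.42.0, other scalings, filters, offsets and thresholds, the 2 compared groups alone, transcript models and libraries left out were tried as alternatives. The methods describe 3 plants per treatment but not which plant gave which library, so that p-values measure the spread between these libraries.

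The members and lists were chosen with earlier results of these data known. Named are members with the highest ranks, the most counts or the extreme R6 fold changes, those nearest each threshold, those the study's tables describe with loci of the same name, and neighbours. Deviations of V3 libraries from their group means correlated between genotypes for the same replicate number (0.404, 0.221 and 0.129). No other pair of groups had positive values for all replicate numbers. A single value there reached 0.208, for replicate 2 of GmNAC81-3 R6 and BR16 V3. The labels state no pairing, and whether V3 libraries of the same number belong together was not tested. Columns of the authors' comparisons and promoter sequences were not used here, and lists of leaf, nodule and seed markers matched no described locus, so that the tissue was not checked by markers.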

Additional observations from a re-analysis of the deposited data

Results flagged for a closer look

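Glyma.16G038900 on chromosome 16, ranked 21, was the only member that edgeR's test called for a difference of the stage effects between the genotypes. DESeq2 called 54 members lower and 1 higher, where 1.51% and 1.3% of the loci with an adjusted p were. Glyma.16G038900 had a log2 difference of the stage effects of -1.85 ± 0.28 (SE, Benjamini-Hochberg adjusted p = 0.0497 in edgeR). It had 11.3, 10.2 and 9.44 CPM in GmNAC81-3 R6, against 9.54, 10.3 and 9.67 CPM in BR16 R6. In V3 leaves it had 101, 105 and 66.4 CPM in GmNAC81-3, against 21.7, 26.0 and 24.2 CPM in BR16. The rule used 3 of these 4 groups, so that the value and its p are of a locus chosen on these libraries and are a description. The call was lost in 15 of 21 alternatives, with an adjusted p of up to 0.189.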

How the results depend on the processing

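The number of loci that met the rule depended mostly on the scaling and on single V3 libraries. With library totals 11 loci met it, all of them members. With each library left out it ran from 149 to 366, the highest without BR16 V3 replicate 1, where leaving out replicate 2 or 3 of that group gave 191 and 182. Leaving out GmNAC81-3 V3 replicate 1, 2 or 3 gave 332, 177 and 278. With both V3 replicate 1 libraries left out it was 587. A rule on the lowest and highest library is easier to meet with fewer libraries. Why the number rose most without the replicate 1 libraries was not tested. Other scalings, filters, offsets and transcript models gave 104 to 172. Of the members, 99 were called higher in GmNAC81-3 V3 than in BR16 V3, where 691 of all tested loci were. On library totals 24 were, of 176 over all tested loci, and at an adjusted p of at most 0.01 23 were, of 143. In a fit of these 2 groups alone 0 were, of 8, whereas DESeq2 called 135, of 1434. With a library left out 13 to 102 members were called, where 89 to 1053 of all tested loci were. The members called were 26 of 179 without GmNAC81-3 V3 replicate 2, 24 of 202 when BR16 V3 replicate 2 was left out and 13 of 89 when BR16 V3 replicate 3 was. Between the genotypes at R6 the 1 member called higher, of 26 over all tested loci, became 4 with DESeq2, of 122. It became 0, of 8, with at least 10 counts in every library, a filter that 118 members pass and Glyma.18G108100 does not. With each library left out it stayed at 1, of 6 to 32. The same filter took the 1 member called higher in GmNAC81-3 R6 than in BR16 V3, of 5206 over all tested loci, to 0 of 3085. On library totals the stage effect of Glyma.18G108100 in GmNAC81-3 turned to 0.66 (adjusted p = 0.175). In the difference of the stage effects 1 member was called lower, of 19 over all tested loci. It became 0 with DESeq2 size factors, without an expression filter, with the replicate block and at an adjusted p of at most 0.01, of 13, 16, 5 and 0 in that order. On library totals it was 2 of 13, with at least 10 counts 2 of 31, and with DESeq2 54 of 562. With both V3 replicate 1 libraries left out it was 12 of 115. With a library left out it ran from 0 to 13, with 12 of 100 without GmNAC81-3 V3 replicate 1 and 13 of 64 with replicate 3 of that group left out. The 0 higher calls, of 9 over all tested loci, became 1 of 527 on library totals and 1 of 483 with DESeq2. The cause was not tested. With the replicate block 68 members were called higher at V3, of 468 over all tested loci. When the V3 libraries were fitted by themselves with it, an alternative chosen after seeing the data, 120 were, of 862. Beside the lower call lost in the difference of the stage effects, the block moved no other count by over 1.5 times. Under every alternative that kept all members, 149 or 150 were called lower at R6 than at V3 in GmNAC81-3 and 146 to 151 in BR16. The rule fixed the fall in BR16, so that its count is only a description. It also chose the GmNAC81-3 V3 libraries to be high, so that the fall in GmNAC81-3 is in part fixed too. Promoter motifs were not run, as no promoter sequences were used here. Members at a few counts in R6 leaves limit the precision of single fold changes there.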
